A study of Mus musculus with 8 samples.

Results

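The Pax genes code for transcription factors that set up regions of the early embryo, and 8 of them, Pax1, Pax2, Pax3, Pax5, Pax6, Pax7, Pax8 and Pax9, are described here in cells sorted from mouse embryoid bodies. The genes were chosen by family name with earlier results of the same comparison known, among them a lower Pax6 level in the endocardial libraries. Their levels in the 2 groups are therefore given as a description. Their calls in the fit over all genes are printed, and nothing is read from them. The members are 8 of the 34536 gene symbols in the count table. One further gene named in the same series, Pax4, had a count of 0 in every library.

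Embryoid bodies are clumps of pluripotent stem cells left to differentiate together, and the cells were sorted from them by fluorescence. The groups are 4 libraries labelled endocardial (A, C, E and G) and 4 labelled endothelial (B, D, F and H). Endocardium is the name for the endothelial lining of the heart. The labels name no genotype, treatment, stem cell line, culture day or sort marker, and nothing says that the libraries came from separate cultures, so the spread between them may be technical. They state no pairing either, but libraries with neighbouring letters (A and B, C and D, E and F, G and H) deviated together from their group means, and fits with these pairs as a block are given beside the results that they change.

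Pax factors bind DNA through the paired domain that gives the family its name. Pax3, Pax6 and Pax7 also carry a complete homeodomain, a second DNA-binding module, while Pax2, Pax5 and Pax8 keep part of one and Pax1 and Pax9 have none. The family is best known from the eye, the neural tube, the somites, the kidney, the pharyngeal pouches and the B cell lineage, and none of its members is a usual marker of endothelium.

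The stretch below is the start of the paired box, the part of each gene that codes for the paired domain, and it is shown because it defines the members and because shared sequence bears on how reads are assigned to them. Each line holds 60 coding bases on the sense strand, 5′ to 3′, from 1 coding transcript of the GENCODE M21 annotation of GRCm38, and capitals mark the 29 positions with the same base in all 8 genes.
Pax6: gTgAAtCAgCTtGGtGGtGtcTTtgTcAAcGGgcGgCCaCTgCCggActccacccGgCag
Pax3: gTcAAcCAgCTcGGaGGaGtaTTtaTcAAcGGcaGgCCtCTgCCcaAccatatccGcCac
Pax7: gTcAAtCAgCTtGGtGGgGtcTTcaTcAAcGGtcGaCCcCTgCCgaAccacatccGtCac
Pax2: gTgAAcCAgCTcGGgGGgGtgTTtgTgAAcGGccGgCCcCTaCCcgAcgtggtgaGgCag
Pax5: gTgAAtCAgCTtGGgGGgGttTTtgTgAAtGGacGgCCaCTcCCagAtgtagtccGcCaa
Pax8: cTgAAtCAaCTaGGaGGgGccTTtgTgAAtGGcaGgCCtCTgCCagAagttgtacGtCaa
Pax9: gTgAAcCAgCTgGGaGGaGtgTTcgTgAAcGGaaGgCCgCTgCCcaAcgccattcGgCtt
Pax1: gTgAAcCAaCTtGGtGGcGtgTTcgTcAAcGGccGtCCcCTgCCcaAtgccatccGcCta

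In the GRCm38 annotation the stretch lies in exon 4 of the chosen Pax6 transcript (chr2:105683839-105683898, plus strand) and in exon 3 of that of Pax8 (chr2:24444661-24444720, minus strand). It lies in exon 2 in the other members, at chr1:78195401-78195460 (Pax3, minus strand), chr4:139830288-139830347 (Pax7, minus strand), chr19:44760889-44760948 (Pax2, plus strand), chr4:44697617-44697676 (Pax5, minus strand), chr12:56696591-56696650 (Pax9, plus strand) and chr2:147365750-147365809 (Pax1, plus strand). Over 120 residues of the paired domain the 5 pairs within the subgroups Pax1/9, Pax2/5/8 and Pax3/7 were 90.0% to 97.5% identical, and the 23 pairs from different subgroups 48.3% to 78.3%. The bases that code for them differed more within subgroups, with 76.9% to 81.7% identity. The longest exact run shared by transcripts of any pair was 37 bases, between Pax3 and Pax6, and 36 of these were repeats of the same 2 bases. Over the other 27 pairs it was at most 27 bases, between Pax2 and Pax8.

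The counts of all members were low. Library totals ran from 6677667 to 11369363 estimated counts. Levels are in CPM (counts divided by the library total after TMM scaling, on the usual CPM scale). A count of 0 allows a level of up to what 3 counts are worth, which reflects counting error alone. By plain library totals, without TMM scaling, this is 0.264 to 0.449 CPM. Of the 8 members, 5 had enough counts to pass the expression filter (Pax2, Pax3, Pax5, Pax6 and Pax9). Pax1, Pax7 and Pax8 did not pass. By mean CPM over all libraries, Pax6 was higher than 52.8% of the 22728 symbols with any count, Pax3 than 45.6% and Pax1 than 25.1%.

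Taken as a sum, the 8 genes were lower in the endocardial libraries. The sum was 5.42, 7.22, 5.81 and 6.36 CPM in endocardial libraries A, C, E and G, against 18.3, 26.6, 22.3 and 25.1 CPM in endothelial libraries B, D, F and H. The highest endocardial sum lay below the lowest endothelial one. The means were 6.20 ± 0.781 CPM in endocardial and 23.1 ± 3.65 CPM in endothelial libraries (SD, n = 4 each), a ratio of 0.269. Pax6 made up 47.2% of the endocardial and 46.2% of the endothelial sum, and without Pax6 the ratio was 0.264, so the other 7 genes together had a ratio close to that of Pax6. Pax5 made up 3.26% of the endocardial and 9.68% of the endothelial sum, and Pax9 made up 12.3% of the endocardial and 5.23% of the endothelial sum.

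**Figure D1:**
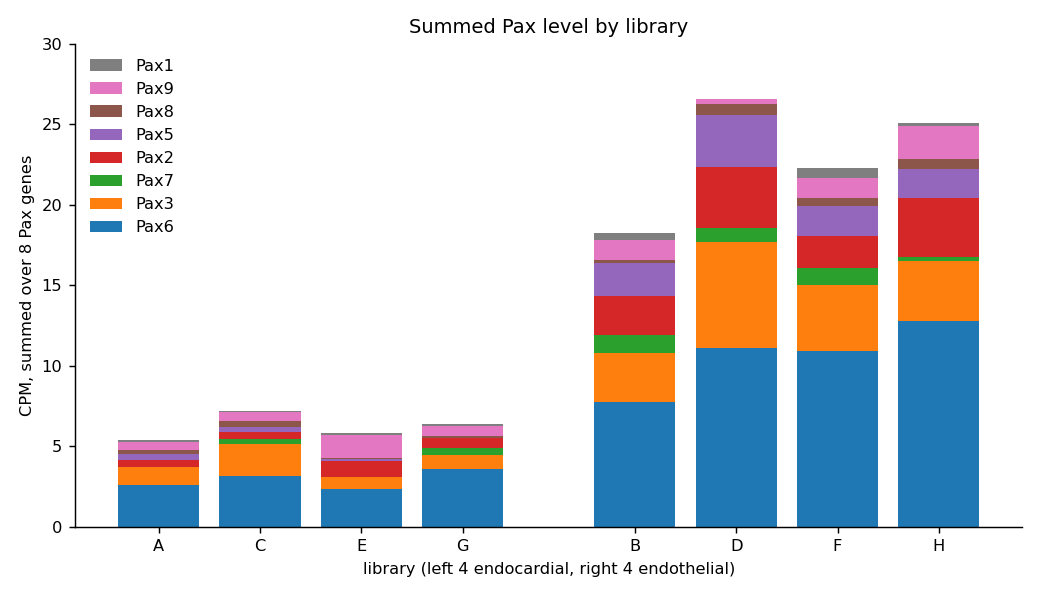
CPM of the 8 Pax genes stacked in each library, with the 4 endocardial libraries on the left and the 4 endothelial libraries on the right. The endocardial sums reach at most 7.22 CPM and the endothelial sums start at 18.3 CPM, with Pax6 the largest part of every bar.

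In the fit over all 13817 tested genes, 4 of the 5 members that passed the filter were among the genes called lower in the endocardial libraries (edgeR's quasi-likelihood test, Benjamini-Hochberg adjusted p below 0.05), while 1.16% of tested genes were called lower and 2.58% in either direction. With the pairs as a block the same 4 of 5 were called, while 5.06% of tested genes were called lower and 8.71% in either direction. In the same 4 members, Pax2, Pax3, Pax5 and Pax6, all endocardial libraries lay below all endothelial ones, as in 5.33% of tested genes. The members were chosen with this comparison known, and a low gene passes the filter more readily when 1 group is high, so nothing is read from these counts. Cells of a type that were fewer and cells that held less of an RNA cannot be told apart in such bulk libraries.

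Pax6 directs the formation of the eye and of much of the forebrain, and it was the member with the most counts (chromosome 2, 105668900 to 105697364, plus strand, protein-coding). It had 20, 30, 22 and 29 counts in endocardial libraries A, C, E and G, against 87, 76, 105 and 107 counts in endothelial libraries B, D, F and H. These were 2.58, 3.14, 2.37 and 3.62 CPM in the endocardial libraries, against 7.76, 11.1, 10.95 and 12.8 CPM in the endothelial libraries. The groups did not overlap, and the lowest endothelial library was B. The log2 fold change, endocardial minus endothelial, was -1.86 (SE 0.25). The antisense gene Pax6os1 overlaps the start of Pax6 in the annotation and has no symbol in the count table. Genes on the opposite strand also overlap Pax1, Pax2, Pax5, Pax8 and Pax9, and of these only Slc25a21, at Pax9, has a symbol there. The library kit was stranded per the labels, but how strand was used in counting is not given in the sources used here. Reads of a member and of a gene that overlaps it may thus not be separated.

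Pax3 and Pax7 act in the dorsal neural tube, the neural crest and the muscle-forming part of the somite, and Pax7 later marks muscle stem cells. Pax3 (chromosome 1, 78101267 to 78197134) had 9, 19, 7 and 7 counts in endocardial libraries A, C, E and G, against 34, 45, 39 and 31 in endothelial libraries B, D, F and H. In CPM this was 1.16, 1.99, 0.753 and 0.873 in the endocardial libraries, against 3.03, 6.57, 4.07 and 3.71 in the endothelial libraries. The groups were apart, with C highest among the endocardial and D highest among the endothelial libraries, and the log2 fold change was -1.83 (SE 0.39). Pax7 (chromosome 4, 139737062 to 139833528) had 0, 3, 0 and 3 counts in A, C, E and G, against 13, 6, 10 and 2 counts in B, D, F and H. Endothelial library H, at 0.239 CPM, lay below endocardial libraries C and G, at 0.314 and 0.374 CPM, so the groups overlapped. Over 4 libraries the count of Pax7 summed to 6 in the endocardial group (exact Poisson 95% interval 2.20 to 13.1) and to 31 in the endothelial group (21.1 to 44.0).

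Pax2, Pax5 and Pax8 act together at the border of midbrain and hindbrain, Pax2 and Pax8 also in the kidney, Pax8 in the thyroid and Pax5 in B cells. Pax2 (chromosome 19, 44756045 to 44837871) had 3, 4, 9 and 5 counts in endocardial libraries A, C, E and G, against 27, 26, 19 and 31 in endothelial libraries B, D, F and H. Its level was 0.599 ± 0.267 CPM in endocardial and 2.97 ± 0.916 CPM in endothelial libraries (SD, n = 4 each), with no overlap and a log2 fold change of -2.26 (SE 0.40). Pax5 (chromosome 4, 44524757 to 44710487) had 3, 3, 1 and 0 counts in A, C, E and G, against 23, 22, 18 and 15 counts in B, D, F and H. Every endocardial library was thus at or under the 3-count floor, and the groups were apart, with endothelial library D highest at 3.21 CPM. The log2 fold change of Pax5 was -3.37 (SE 0.57), the most negative of the 5 fitted members, although with 7 endocardial counts in all its size is poorly known (exact Poisson 95% interval of the sum 2.81 to 14.4, against 78 endothelial counts with 61.7 to 97.4).

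Pax8 differed from Pax2 and Pax5 in that its groups overlapped. Pax8 (chromosome 2, 24420560 to 24475599) had 2, 4, 1 and 1 counts in endocardial libraries A, C, E and G, against 2, 5, 5 and 5 in endothelial libraries B, D, F and H. Endothelial library B, at 0.178 CPM, was below endocardial libraries A and C. The sums were 8 counts in the endocardial group (3.45 to 15.8) and 17 in the endothelial group (9.90 to 27.2). These intervals cover counting error of the summed counts only and not the spread between libraries. Pax8 did not enter the main fit, and with no filter on low counts it was not called (log2 fold change -1.05).

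Pax1 and Pax9 pattern the sclerotome, which forms the vertebral column, and the pharyngeal pouches, and Pax9 is needed for teeth. Pax9 (chromosome 12, 56691767 to 56712822) had 4, 5, 13 and 5 counts in endocardial libraries A, C, E and G, against 14, 2, 12 and 17 in endothelial libraries B, D, F and H. The groups overlapped at both ends, since endocardial library E, at 1.40 CPM, was above 3 endothelial libraries and endothelial library D, at 0.292 CPM, was below every endocardial one. The log2 fold change was -0.66 (SE 0.54), and Pax9 was the fitted member that was not called. Slc25a21, a mitochondrial carrier gene, overlaps the end of Pax9 on the opposite strand and had 3 to 18 counts per library. Pax1 (chromosome 2, 147361925 to 147393295) had 1 count in each endocardial library, against 5, 0, 6 and 2 counts in endothelial libraries B, D, F and H. Its sums were 4 counts (1.09 to 10.2) in the endocardial and 13 counts (6.92 to 22.2) in the endothelial group.

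**Figure D2:**
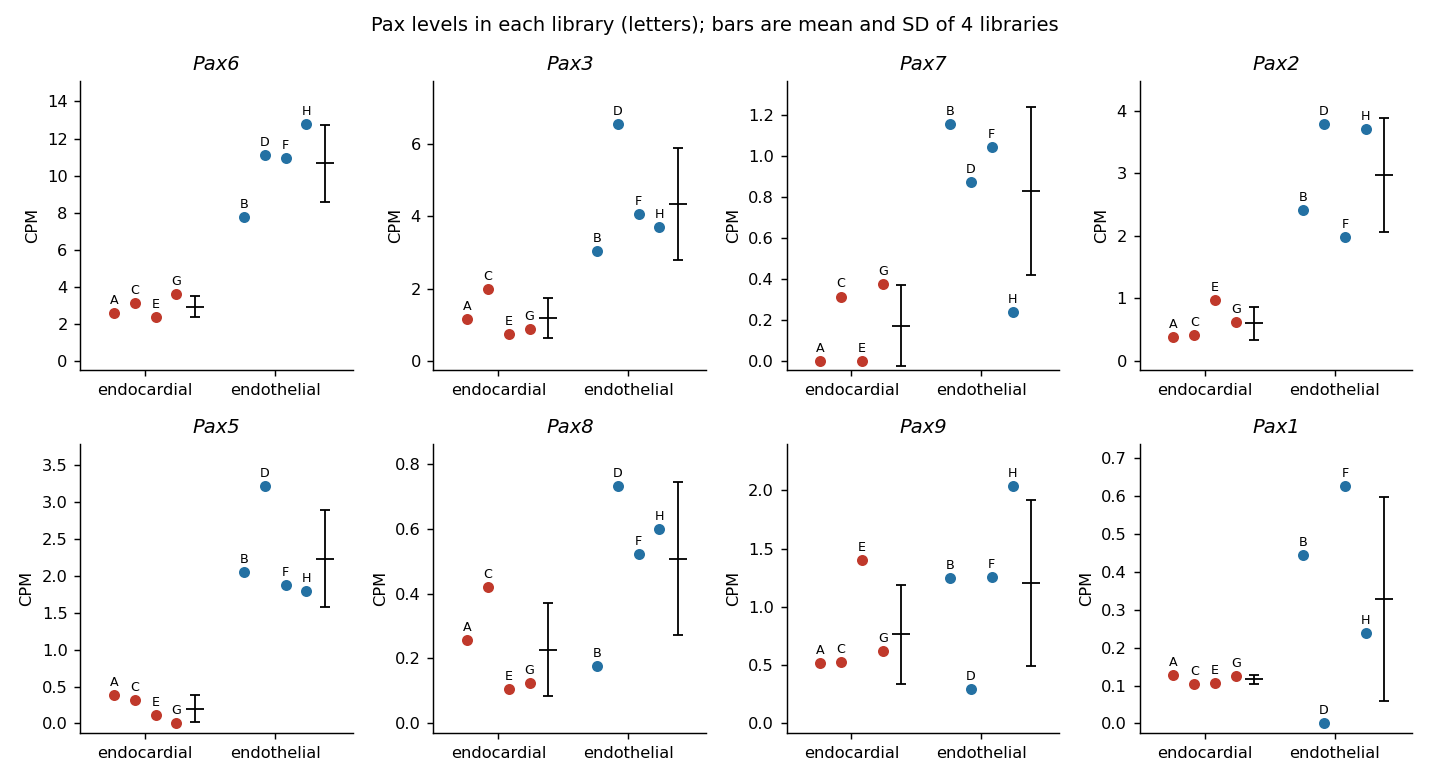
CPM of each Pax gene in each library, marked by its letter, with endocardial libraries on the left and endothelial libraries on the right of every panel, and the mean and SD of 4 libraries beside them. Pax6, Pax3, Pax2 and Pax5 are apart between the groups, while Pax7, Pax8, Pax9 and Pax1 overlap.

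Library D held the highest endothelial value of 4 members (Pax2, Pax3, Pax5 and Pax8) and the lowest value of Pax1 and Pax9. In the endocardial group each of the 4 libraries held the highest value of 2 members. No single library was highest or lowest for each of the 8 members in either group. The sum of the 8 was highest in C and lowest in A among the endocardial libraries. Among the endothelial libraries it was highest in D and lowest in B. Within the pairs, the endocardial over endothelial ratio of the summed Pax level was 0.297 for A over B, 0.272 for C over D, 0.260 for E over F and 0.253 for G over H. Pax2, Pax3, Pax5 and Pax6 were lower in the endocardial library of all 4 pairs, Pax1, Pax7 and Pax8 in 3 and Pax9 in 2.

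Levels of different genes were compared as CPM per kilobase of merged exons. In the endocardial libraries the order was Pax6 (0.250 ± 0.0483), Pax3 (0.193 ± 0.0900), Pax9 (0.151 ± 0.0840), Pax2 (0.111 ± 0.0494), Pax8 (0.0375), Pax7 (0.0294), Pax1 (0.0259) and Pax5 (0.0228 ± 0.0203 CPM per kilobase, SD, n = 4). The ranges of neighbours in this order overlapped except between Pax2 and Pax8, and the last 4 rest on 0 to 4 counts per library. In the endothelial libraries it was Pax6 (0.911 ± 0.180), Pax3 (0.702 ± 0.250), Pax2 (0.550 ± 0.169), Pax5 (0.252 ± 0.0747), Pax9 (0.239 ± 0.141), Pax7 (0.142), Pax8 (0.0836) and Pax1 (0.0730 ± 0.0600 CPM per kilobase). Here only Pax2 and Pax5 had ranges that did not overlap as neighbours. With the length of the coding transcript in place of merged exons, Pax6 and Pax3 were still first and second in both groups, Pax2 passed Pax9 and Pax7 passed Pax8 in the endocardial group, and Pax7 passed both Pax9 and Pax5 in the endothelial group.

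The promoter windows of the RefSeq table (build GRCm38.p6) covered 7 of the 8 members with 10 windows, and Pax3 is not among them. In the 250 bases before the start site, the 10 windows held 5 to 25 CG dinucleotides, and 8 of them held more than the median of 6 over all 32851 windows. The first Pax6 window is shown because Pax6 was the highest member and its window matched 2 of the 5 motifs searched on both strands. These were the CCAAT box, the TATA box as TATAAA, the cyclic AMP response element TGACGTCA, the Sox motif ATTGTT, and the octamer core TTTGCAT. The window is chr2:105668646-105668895, plus strand, 5′ to 3′, with the motif matches in capitals.
Pax6: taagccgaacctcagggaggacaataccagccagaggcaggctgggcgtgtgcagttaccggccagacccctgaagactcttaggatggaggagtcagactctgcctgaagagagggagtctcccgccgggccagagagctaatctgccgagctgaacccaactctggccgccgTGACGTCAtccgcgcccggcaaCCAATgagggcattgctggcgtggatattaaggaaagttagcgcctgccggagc

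The capitals are TGACGTCA, found in 1.55% of all windows of this length, and CCAAT, found in 33.8%. CCAAT was also in the windows of Pax1 and Pax8, and the other 7 member windows held none of the 5 motifs, so Pax2, Pax5 and Pax6 shared no motif of this search in these windows. The motifs were chosen with the sequence in view, and a match describes letters only.

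The purity of the groups was described by marker lists. Of 12 pan-endothelial markers, 10 were higher in the endocardial libraries, with sums of 1390 to 1883 CPM there and 432.6 to 881.9 CPM in the endothelial libraries. Of 7 tested endocardial markers 3 were higher, Nfatc1, Hapln1 and Nrg1. Every marker had counts, and the lower endothelial markers in the libraries labelled endothelial stand beside each Pax value here. Pluripotency markers summed to 21.4 to 133 CPM in the endocardial and 136 to 1013 CPM in the endothelial libraries, with all 10 below 0 in log2 fold change and 2 called lower (Fgf4 and Tdgf1), or 9 with the pairs as a block. Neural ectoderm markers summed to 220.5 to 318.0 CPM in the endocardial and 294 to 479 CPM in the endothelial libraries, with 9 of 10 tested below 0 and 3 called lower (Sox1, Sox3 and Nrcam), or 6 with the block. The largest parts of these sums were Nes and Ncam1, neither of them called. Nes had means of 148.9 CPM in endocardial and 155.2 CPM in endothelial libraries, and Ncam1 had 82.8 and 97.2 CPM. Sox2 is in both the pluripotency and the neural ectoderm list, so their sums are not separate. It had means of 13.1 CPM in endocardial and 60.4 CPM in endothelial libraries and was not called in the fit without a block. Of 8 epithelial markers 2 were called lower (Cdh1 and Epcam), or 5 with the block, with sums of 543 to 896 CPM in the endocardial and 685 to 1250 CPM in the endothelial libraries. Krt8 and Krt18, neither of them called, were the largest parts of these sums. Krt8 had means of 429.0 CPM in endocardial and 424.6 CPM in endothelial libraries, and Krt18 had 267.5 and 247.1 CPM. Without the block, with 1 of the 8 libraries left out at a time, Fgf4, Sox1 and Epcam kept their calls in 2 fits, Tdgf1, Nrcam and Cdh1 in 3, and Sox3 in 8. Over all tested genes 2.58% were called without the block and 8.71% with it. The part of cells with these markers in the Pax levels was not tested.

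Library F had the highest pluripotency sum, at 1013 CPM against 136 to 230 CPM in B, D and H, and a Pax sum of 22.3 CPM within the endothelial range. Library E, its neighbour by letter, had the highest endocardial pluripotency sum, 133 CPM against 21.4 to 25.8 CPM in A, C and G, and a Pax sum of 5.81 CPM within the endocardial range. The log2 ratio of the summed Pax level, endocardial over endothelial, was -1.90 with all libraries, -1.91 without F and -1.86 without E. Without either library the groups still differed in pluripotency sums, as the values of B, D and H and of A, C and G show. These ratios therefore cannot show the part of such cells in the Pax levels, which was not tested.

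**Figure D3:**
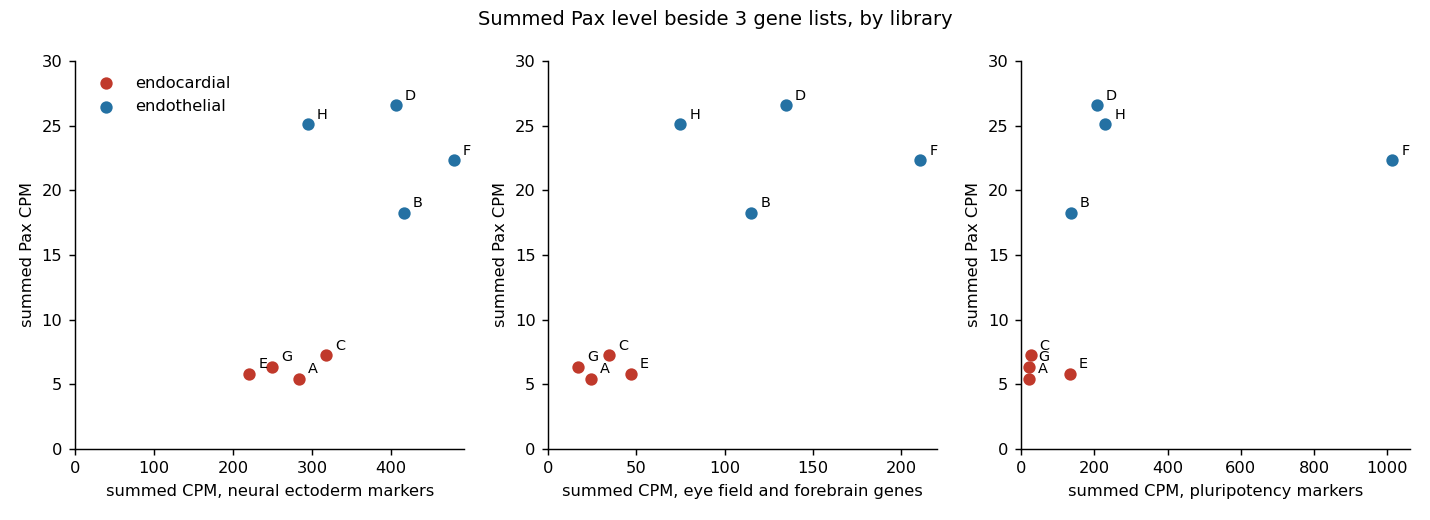
Summed Pax CPM of each library against the summed CPM of neural ectoderm markers, of eye field and forebrain genes and of pluripotency markers, with endocardial libraries in red and endothelial libraries in blue. Library F stands far to the right for pluripotency markers and eye field genes, and its Pax sum of 22.3 CPM is between those of B and H.

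Genes of the regions where Pax factors act were then tested, in lists drawn up by region with earlier results of the series known. The median log2 fold change over the 13817 tested genes was 0.015, and 14.6% of them had an unadjusted p under 0.05. Without the block 356 genes were called, and with it 1204, among them all 356. Of all tested genes these were 2.58% (1.16% lower in the endocardial libraries) and 8.71% (5.06% lower). The calls in every list below stand beside these shares, and nothing is read from their number in lists this short. Genes of the eye field and forebrain, the regions of Pax6, were lower in the endocardial libraries where they were called. Of 11 tested, 3 were lower, 0 higher and 8 not called, all 11 had a negative log2 fold change and an unadjusted p under 0.05, and the median was -1.97. With the pairs as a block 9 were lower and 0 higher. Lhx2, a homeobox gene needed for the eye and the cortex, had 2.16 ± 0.803 CPM in endocardial and 12.1 ± 4.53 CPM in endothelial libraries (SD, n = 4 each; log2 fold change -2.48, SE 0.35, adjusted p = 0.00629). Six3, which specifies the anterior forebrain, had 0.516, 3.04, 3.01 and 1.62 CPM in A, C, E and G, against 8.38, 11.7, 22.1 and 8.61 CPM in B, D, F and H (log2 fold change -2.61, SE 0.50, adjusted p = 0.0276). A gene of forebrain progenitors, Fezf2, had 0.981 ± 0.771 CPM in endocardial and 10.1 ± 7.46 CPM in endothelial libraries, and its fitted log2 difference was -3.31 (SE 0.70) with an adjusted p of 0.0408. Lhx2 kept its call whichever of the 8 libraries was left out, Six3 was not called without C, D, E or G (adjusted p 0.0590 to 0.0954) and Fezf2 not without A, C, D, E, F or G (0.0671 to 0.119). All 3 were highest in library F, and Pax6 was highest in H.

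At the midbrain-hindbrain border, the region of Pax2, Pax5 and Pax8, 1 of 9 tested genes was lower in the endocardial libraries, 0 higher and 8 not called, with a median of -1.95, and with the pairs as a block 5 were lower and 0 higher. The gene called without the block was Cnpy1, an FGF signalling factor of that border known from zebrafish, at 0.323 ± 0.0810 CPM in endocardial and 4.73 ± 4.94 CPM in endothelial libraries (log2 fold change -3.84, SE 0.74, adjusted p = 0.0267). Its endocardial counts of 3, 2, 3 and 3 were at or under the 3-count floor, so it passed the filter through the endothelial group alone and the size of its difference is poorly known. Cnpy1 had 12.1 CPM in library F and 1.67 to 2.63 CPM in B, D and H, and it was not called without A, C, D, E or G (adjusted p 0.0514 to 0.0983). Of the list, 5 genes had an unadjusted p under 0.05. Over all tested genes 1.16% were called lower without the block and 5.06% with it, and nothing is read from the number of calls here. En1, En2 and Gbx2, named after their values were seen because they are classical genes of this border, were too low to test, with at most 20, 5 and 10 counts in a library.

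Of 13 tested genes of the intermediate mesoderm and kidney, where Pax2 and Pax8 act, 1 was lower, 0 higher and 12 not called (median -0.67). Other fits called genes in both directions, with 4 lower and 1 higher with the pairs as a block, 2 lower and 1 higher by DESeq2, and 2 lower and 2 higher by limma. Ret, the receptor through which GDNF drives outgrowth of the ureteric bud, had 4.13, 5.97, 6.45 and 4.87 CPM in A, C, E and G, against 8.47, 17.1, 12.8 and 14.0 CPM in B, D, F and H (log2 fold change -1.28, SE 0.25, adjusted p = 0.0291). The groups of Ret did not overlap, and D was its highest library. Ret was not called without A, C, D, E, G or H (adjusted p 0.0541 to 0.0953). The calls of this list stand beside 2.58% of all tested genes called without the block and 8.71% with it.

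In the dorsal neural tube and neural crest, the regions of Pax3 and Pax7, 2 of 12 tested genes were lower, 0 higher and 10 not called, with a median of -1.08, and with the pairs as a block 6 were lower and 0 higher. One of them was Tfap2a, a factor of the neural crest and its border, which had 2.42 ± 0.821 CPM in endocardial and 10.2 ± 3.60 CPM in endothelial libraries (log2 fold change -2.06, SE 0.34, adjusted p = 0.0120). Tfap2a kept its call whichever of the 8 libraries was left out. Sums of this list were 166 to 191 CPM in endocardial and 233 to 251.5 CPM in endothelial libraries. Msx1, Ednrb and Snai2 were the largest parts of these sums, and none of them was called. Over all tested genes 1.16% were called lower without the block and 5.06% with it.

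Genes of the somite, sclerotome and muscle, where Pax1, Pax3, Pax7 and Pax9 act, were few among those tested. Their calls stand beside 2.58% of all tested genes called without the block and 8.71% with it, and nothing is read from their number. Of 9 tested, 0 were called by edgeR without the block and 1, Met, was lower with it (adjusted p = 0.0258), 4 had an unadjusted p under 0.05, and DESeq2 and limma called 1 each, with a median of 0.19. Among the smallest p-values were those of Met, the receptor that limb muscle precursors need (log2 fold change -1.56, adjusted p = 0.0997), Ripply1 (-1.01, adjusted p = 0.241) and Foxc2 (0.84, adjusted p = 0.294). Summed levels of this list overlapped, at 28.7 to 48.9 CPM in endocardial and 31.9 to 49.7 CPM in endothelial libraries. The muscle gene Myf6 had no count in any library.

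The pharyngeal pouch and thyroid list, regions of Pax1, Pax8 and Pax9, had genes higher in the endocardial libraries. Of 7 tested genes, 2 were higher, 0 lower and 5 not called, with a median of 0.00. Over all tested genes 2.58% were called without the block and 8.71% with it. Other fits also called genes lower, with 2 higher and 2 lower both by DESeq2 and with the pairs as a block, and 2 higher and 1 lower by limma. Hhex had 22.4 ± 4.71 CPM in endocardial and 5.58 ± 0.994 CPM in endothelial libraries (log2 fold change 2.0, SE 0.20, adjusted p = 0.000681) and kept its call whichever of the 8 libraries was left out. Hhex is a homeobox gene of the foregut and thyroid and also of early blood vessel precursors. Fgf3, a growth factor of the pharyngeal arches and the ear, had 35.3 ± 12.2 CPM in endocardial and 10.7 ± 4.27 CPM in endothelial libraries (log2 fold change 1.72, SE 0.34, adjusted p = 0.0323), and was not called without A, C, D, E or H (0.05003 to 0.106). Of B cell genes, 2 of 12 could be tested, and edgeR, DESeq2 and limma called 0, with 1 at an unadjusted p under 0.05. They were Ebf1 (log2 fold change 0.85, adjusted p = 0.134) and Rag2 (-0.42, adjusted p = 0.691).

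**Figure D4:**
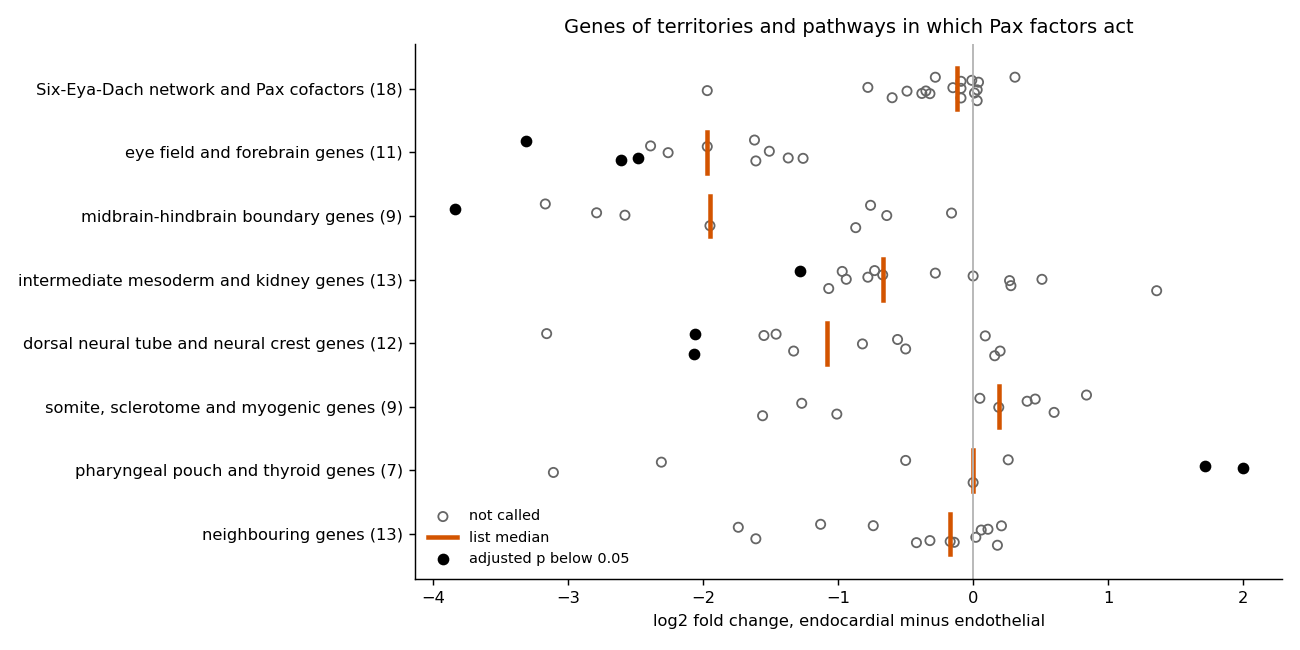
Log2 fold change, endocardial minus endothelial, of each tested gene in lists of regions and pathways in which Pax factors act (number tested in brackets), with filled points for an adjusted p below 0.05 in the fit without a block and a bar at each list's median. The medians of the eye field and midbrain-hindbrain lists are -1.97 and -1.95, while those of the cofactor, somite, pharyngeal and neighbouring gene lists lie between -0.17 and 0.19.

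Calls among genes for proteins that work with Pax factors stand beside 2.58% of all tested genes called without the block and 8.71% with it. Nothing is read from the number of calls in so short a list. Of 18 tested genes of the Eya and Dach network, a set of factors that act with Pax genes in eye, ear and kidney, and of Pax cofactors, edgeR called 0, with 4 at an unadjusted p under 0.05, and DESeq2 and limma called 1 each (median -0.12). Eya2, a phosphatase and transcriptional coactivator, had 1.62 ± 0.890 CPM in endocardial and 6.49 ± 3.53 CPM in endothelial libraries (log2 fold change -1.97, SE 0.49, adjusted p = 0.0699), and it was the 1 gene of this list called with the pairs as a block (adjusted p = 0.00239). Tle4 (-0.49), Six4 (-0.60) and Dach1 (-0.78) had the next smallest p-values, with adjusted p of 0.239, 0.307 and 0.316. Paxip1, a partner that links Pax2 to histone methylation, had 74.3 ± 7.79 CPM in endocardial and 72.6 ± 3.93 CPM in endothelial libraries (log2 fold change 0.03, SE 0.10, adjusted p = 0.930). Paxbp1, which binds Pax3 and Pax7, had 142.8 ± 19.9 CPM in endocardial and 138.7 ± 15.4 CPM in endothelial libraries (log2 fold change 0.04, SE 0.13, adjusted p = 0.929). Both partner genes were thus above every Pax gene in total CPM in all libraries.

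Genes that overlap a member, such as Slc25a21 at Pax9, were left out of the search for neighbours. Each member's nearest other protein-coding gene on either side, among the symbols in the count table, gave 16 genes, 13 of them tested. EdgeR called 0 of these, with 4 at an unadjusted p under 0.05, DESeq2 and limma called 2 each, and 3 were lower with the pairs as a block, with a median of -0.17. The 3 were Sgpp2, Cacna1b and Foxa2, with adjusted p of 0.0411, 0.0440 and 0.00902 in that fit. Over all tested genes 1.16% were called lower without the block and 5.06% with it. The smallest p-values belonged to Sgpp2, 113.2 kb from Pax3 (log2 fold change -1.61, SE 0.40, adjusted p = 0.0669), Cacna1b, 128.3 kb from Pax8 (-1.13, adjusted p = 0.115), Foxa2, 649.6 kb from Pax1 (-1.74, adjusted p = 0.187), and Klhdc7a, 126.7 kb from Pax7 (-0.74, adjusted p = 0.269).

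For each of the 5 members that passed the filter, the genes with the most similar pattern were found by Pearson's r of log2 CPM over the 8 libraries among 10894 candidates with a mean of at least 5 CPM. The points share depth and the difference between the groups, so r is a description. Pax6 was most like Gnao1 (r = 0.973), Kcnj3 (0.971), Fign (0.967), Prkcz (0.961) and Thsd7a (0.961). Pax5 was most like Irs4 (0.989), Acss1 (0.982), Trh (0.973), Adamts20 (0.967) and Zbtb16 (0.964), and Pax3 was most like Adamts20 (0.983), Acss1 (0.955), Shank1 (0.953), Gja1 (0.952) and Efr3b (0.951). Pax2 was most like Dhx32 (0.963), Fign (0.943), Slc9a3r1 (0.932), Ret (0.932) and Ccdc112 (0.931). Pax9 was most like Tmem251 (0.955), Slc50a1 (0.909), Yif1b (0.903), Tmed3 (0.892) and Sdf2 (0.886), 5 genes of which none was called. Among the genes like the other members, Adamts20, Shank1, Gja1, Efr3b, Dhx32, Slc9a3r1 and Ccdc112 were not called either. The rest were called lower in the endocardial libraries.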

How the data were processed

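The authors deposited estimated counts per gene symbol, whole numbers with unequal totals. Salmon, DESeq2 and build mm10 are named per the submitters' processing notes, while the role of each, the transcript set and any filter were not stated there. Rounding to whole numbers changed none of them. EdgeR 4.0.16 (R 4.3.3) dropped low genes by filterByExpr with a minimum count of 10 and a minimum total of 15, used TMM scaling, and compared endocardial minus endothelial over all 8 libraries with the robust quasi-likelihood test, with Benjamini-Hochberg adjustment over 13817 genes and calls below 0.05. The common biological coefficient of variation was 0.239. SE is the absolute log2 fold change over the square root of F. Fits with and without a block were tested on simulated counts. DESeq2 1.42.0 and limma 3.58.1 (voom with quality weights), other scalings and filters and leaving out each library were alternatives. Libraries with neighbouring letters were taken as pairs after the data were seen, since their deviations from the group means over 13817 genes correlated at 0.32 to 0.61, against -0.41 to 0.05 for other combinations, and each of the 8 libraries was most like its neighbour. The labels state no such pairing, and the fit without a block remained the main one. Members, lists and motifs were chosen with earlier results of these data known. Named in each list were the called genes, up to 6, or the 4 with the smallest p where none was called, and for each fitted member the 5 most similar genes. The annotation, GENCODE M21 of GRCm38 (the assembly of mm10), held 32697 of the 34536 symbols. Some genes that this rule names are not reported here.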

Additional observations from a re-analysis of the deposited data

Results flagged for a closer look

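Pax9 in endocardial library E was 1.40 CPM (13 counts), far from the 0.516 to 0.624 CPM (4 or 5 counts) of A, C and G. The summed level of Pax1 and Pax9 was flagged for the same library, at 1.51 CPM against 0.628 to 0.749 CPM, and rests on the Pax9 value. The rule flags about 1 of 20 groups of 4 by chance, and of 28 groups examined 2 were flagged. Both flags rest on the same value, and nothing more is read from them.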

How the results depend on the processing

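The log2 ratio of the summed Pax level was -1.90 with RLE scaling, -1.93 with plain library totals and -1.99 to -1.82 when 1 library was left out. Of 5 fitted members, Pax6 kept its call whichever of the 8 libraries was left out, Pax5 kept it in 6 fits (not without D or E), Pax2 in 4 (not without A, C, D or G) and Pax3 in 2 (those without B or C), with log2 fold changes of -1.98 to -1.76, -3.81 to -2.99, -2.61 to -2.12 and -2.23 to -1.57. Pax9 was called in 0, at -1.13 to -0.32. The members were chosen with this comparison known, and a low gene passes the filter more readily when 1 group is high. Nothing is therefore read from the number of fits in which a member kept its call. EdgeR called 356 genes in all, against 860 by DESeq2, 975 by limma and 135 to 457 with 1 library left out. DESeq2 called 7 eye field, 4 midbrain-hindbrain, 3 kidney, 5 neural crest, 1 somite, 4 pharyngeal, 1 cofactor and 2 neighbouring genes. Limma called 7 eye field, 4 kidney, 5 neural crest, 1 somite, 1 cofactor and 2 neighbouring genes, and 3 pharyngeal genes. With no filter on low counts, 4 neural crest, 3 kidney and 1 pharyngeal gene were called. With 1 library left out, calls ranged from 1 to 5 in the eye field list, 0 to 2 in the midbrain-hindbrain and kidney lists, 1 to 4 in the neural crest list and 1 to 2 in the pharyngeal list. The cause of these differences was not tested. With neighbouring letters as a replicate block, chosen after seeing the data, 1204 genes were called, of them 9 eye field, 5 midbrain-hindbrain, 5 kidney, 6 neural crest, 1 somite, 4 pharyngeal, 1 cofactor and 3 neighbouring genes, and the log2 ratio of the summed Pax level was -1.89. The block ended none of the 356 calls. Members with under 10 counts per library are limited by depth.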
